A study of Mus musculus with 27 samples.

Results

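The genes described here encode the proteins of the cytosolic ribosome. They were taken as every symbol of the deposited count table that consists of Rpl or Rps, digits and optionally the letter a or x, together with Rplp0, Rplp1, Rplp2 and Rpsa. This gave 76 of 25192 symbols, 30 for the small (40S) and 46 for the large (60S) subunit. Rps3a1 and Fau also encode cytosolic ribosomal proteins, but their symbols fall outside the rule. All 76 genes passed the low-count filter in every fit.

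Bulk RNA sequencing covered 9 groups of mouse cells with 3 libraries each, 27 in all. Macrophages grown from bone marrow (BMDM), embryonic fibroblasts (MEF) and cells labelled MAEC (aortic endothelial cells) were each left unstimulated (0 h) or were given imidazole propionate (ImP), a bacterial product of histidine, at 10 µg/mL for 1 or 2 h after a night of rest. The labels give no genotype, strain, sex or age, no vehicle group at 1 or 2 h, and no statement that libraries of a group are separate cultures or animals, so p-values measure only the spread between these libraries, which may be technical. BMDM and MEF RNA went through a directional library kit and MAEC RNA through a low-input kit, from other wells and another extraction kit, so kit and cell type cannot be told apart in any comparison with MAEC.

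The libraries held 28.8 to 35.6 M counts in BMDM, 30.6 to 36.5 M in MEF and 19 to 61 M in MAEC. All 12 macrophage markers had a mean of at least 10 CPM (counts scaled to a common library total) in BMDM, against 5 of 11 fibroblast markers in MEF. Only 1 of 14 endothelial markers reached 10 CPM in the libraries labelled MAEC, 8 were under 1 CPM and the tight junction gene Cldn5 was at 0 in every one of them, while 9 of 11 fibroblast and 5 of 8 smooth muscle markers reached 10 CPM. The label MAEC is therefore used below only as a name for those libraries.

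As background, each ribosome carries a single copy of nearly every ribosomal protein, so cells make these proteins in matched amounts. Their mRNAs are short and abundant, and most begin with a C followed by a run of pyrimidines (the TOP motif), through which mTOR and LARP1 set how well they are translated. Because that control acts mainly on translation and mRNA storage, an mRNA level measured by sequencing need not follow ribosome production.

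The start sites carry a sequence feature that is frequent in this family. The RefSeq promoter table on GRCm38.p6 had an entry for 56 of the 76 genes. Within 15 bases on either side of a listed start, an uninterrupted run of at least 8 C or T on the sense strand was found for 25 of them (44.6%), against 3735 of 26969 other genes (13.8%). A listed start can differ from the real first base, so the absence of a run says only that those letters are not in that window. Below, 4 genes with such a run are followed by 3 without one, chosen because their levels are described later, with the longest run in capitals, 5′ to 3′ on the sense strand. The Rpl35 window lies at chr2:39005117-39005146 on the minus strand, and the Rpl15 window at chr14:18270972-18271001 on the minus strand. The others are on the plus strand, Rpl4 at chr9:64173372-64173401, Rpl13 at chr8:123102335-123102364, Rps2 at chr17:24720048-24720077, Rpsa at chr9:120127751-120127780 and Rps25 at chr9:44407699-44407728.
Rpl35: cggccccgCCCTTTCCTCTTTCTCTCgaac
Rpl15: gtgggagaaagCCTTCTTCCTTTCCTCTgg
Rpl4: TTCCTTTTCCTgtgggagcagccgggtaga
Rpl13: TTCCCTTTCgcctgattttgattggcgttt
Rps2: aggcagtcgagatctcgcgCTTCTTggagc
Rpsa: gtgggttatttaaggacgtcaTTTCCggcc
Rps25: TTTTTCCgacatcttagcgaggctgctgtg

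Other letters were searched on both strands from 250 bases before to 50 after the listed start. CCGGAAG, the core bound by ETS family factors, was found for 23 of the 56 genes (41.1%) against 2660 other genes (9.86%). AAGATGG, the core of the YY1 motif, was found for 9 (16.1%) against 1958 (7.26%). These are matches of letters and not measured binding. The genes lie on 19 chromosomes, 4 of them on X. The transcripts are short, with a median length of 680.5 bp (271 to 3706) against 2574 bp for the 13090 genes with at least 1 CPM, and 60 of the 76 are under 1000 bp, as are 10.9% of those genes. The longest, Rps20, has a single annotated coding transcript. Small nucleolar RNAs, which guide modification of ribosomal RNA, are annotated on the same strand within 23 of the genes, and 21 overlap a gene on the opposite strand, from which reads cannot be separated unless counting used strand, which the sources used here do not give.

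Levels between genes were compared only per kilobase of transcript, as CPM per kb in unstimulated cells (mean ± SD, n = 3). The mRNAs spanned 18.1-fold in BMDM, 19.2-fold in MEF and 17.8-fold in MAEC, with medians of 434, 546 and 590 CPM per kb. In BMDM and MAEC the low end of the span was Rps20, whose counts were divided by its single annotated transcript of 3706 bp. The span in those cells therefore depends on that length. Rplp1, an acidic protein of the stalk that recruits elongation factors, was the highest in BMDM (1245 ± 81.1) and MEF (1825 ± 87.5). After it in BMDM came Rps24 (1052 ± 59.4), Rpl10, which completes the large subunit (985 ± 94.2), Rpl41, the shortest ribosomal protein (835 ± 110.5), and Rps29 (785 ± 26.8). In MEF the next were Rps2 (1387 ± 30.8), Rplp0, the base of the stalk (1385 ± 77.5), Rpl13 (1318 ± 54.9) and Rps4x (1174 ± 35.2). Neighbours such as Rps2 and Rplp0 in MEF did not differ beyond their spread.

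In MAEC the highest were Rps19, the gene first tied to Diamond-Blackfan anaemia (1843 ± 448), Rplp0 (1827 ± 347), Rpl13 (1770 ± 274), Rpl32 (1686 ± 370) and Rpl41 (1524 ± 458), none apart from the next beyond their spread. The lowest were Rps20 (68.8 ± 5.0 in BMDM, 121.2 in MEF, 103.4 in MAEC), whose length is the single long transcript above, and Rpl35 in BMDM (78.9 ± 2.1) and MEF (94.8 ± 10.8). Rps3 (227.5 and 240.8) and Rpl37 (195.7 and 270.1) were among the lowest 5 in both BMDM and MEF, with Rpl36a (224.7) in BMDM and Rps21 (265.9) in MEF. In MAEC the low end was instead Rps12 (171.3), Rpl12 (185.5), Rpl27a (220.8) and Rpl22 (227.7). The mean level per kb differed most between cell types for Rpl35 (a log2 range of 2.84), Rps19 (2.38) and Rpsa (2.05), against a median range of 0.94 over the 76 genes.

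**Figure D1:**
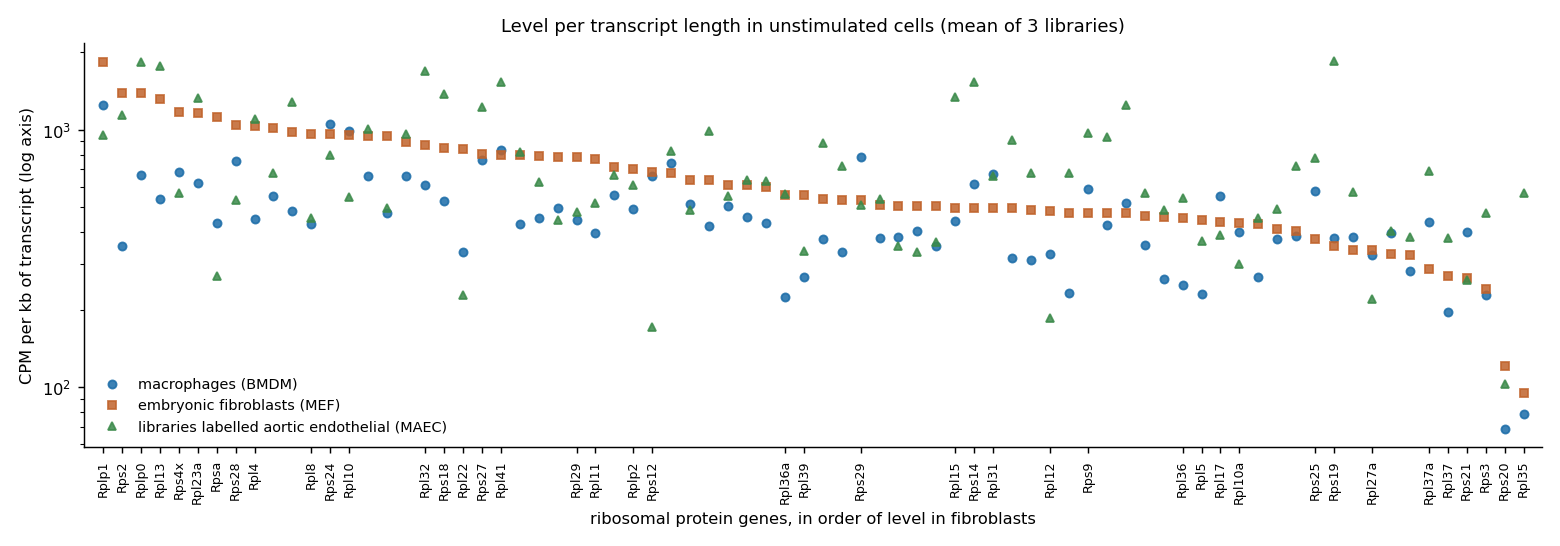
Level per kb of transcript of the 76 genes in unstimulated cells of each cell type, in CPM per kb on a log axis, with each point the mean of 3 libraries and genes ordered by their level in MEF, of which those described in the text are labelled. The genes span 18.1-fold in BMDM, 19.2-fold in MEF and 17.8-fold in MAEC, with medians of 434, 546 and 590 CPM per kb. The lowest gene in BMDM and MAEC is Rps20, whose value depends on its long annotated transcript.

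Ribosomal protein genes took a smaller share of the counts in macrophages than in fibroblasts. The 76 genes took 2.25% ± 0.128 of all counts in unstimulated BMDM, 4.45% ± 0.257 in MEF and 4.21% ± 0.695 in MAEC (SD, n = 3), and no BMDM library (1.97 to 2.38% over 9) overlapped a MEF library (4.13 to 5.31%). Per gene, 48 of the 76 were lower and 9 higher in BMDM at 0 h (edgeR quasi-likelihood test, adjusted p under 0.05), where 35.5% of all genes tested were lower and 32.7% higher. The median log2 difference was -0.47, against -0.07 over all genes. All 48 were also lower at 1 h (65 lower and 0 higher, background 35.6% and 32.8%) and at 2 h (52 lower and 5 higher, background 35.4% and 32.4%), and 0 of the 9 stayed higher at all 3 times, where 31.7% of genes were lower and 29.4% higher at all 3. These values are relative to all counts of a library, so a lower share need not mean fewer of these mRNAs per cell. Amounts per cell were not measured in these bulk samples.

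The 40S proteins decode the mRNA. Of 30 genes, 12 were lower and 6 higher in BMDM than in MEF at 0 h (median -0.14), where 35.5% of all genes were lower and 32.7% higher, so the lower count lay near that background. Rps2, which lines the mRNA entry channel, differed most. Its level was 402, 287 and 366 CPM in the BMDM libraries at 0 h, 348, 372 and 353 at 1 h and 363, 352 and 332 at 2 h. In MEF it was 1350, 1392 and 1410 CPM at 0 h, 1352, 1550 and 1647 at 1 h and 1440, 1391 and 1343 at 2 h. Every MEF library was thus above every BMDM library at each time, with a log2 difference at 0 h of -1.98 (SE 0.0975, edgeR adjusted p = 9.33e-16). Rps2 lies at chr17:24718116-24721929 and overlaps Snhg9 and Snora78 on the opposite strand.

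Rpsa, which also serves as a laminin receptor at the cell surface (chr9:120127689-120132369), was at 612 to 726 CPM over the 9 BMDM libraries (median 637) and 1720 to 2233 CPM in MEF (median 1816). The groups did not overlap, and the log2 difference at 0 h was -1.36 (SE 0.112, edgeR adjusted p = 3.53e-11). Rps25, which several viral and cellular internal ribosome entry sites need, went the other way. It was at 280 to 340 CPM in BMDM (median 315) and 196 to 277 CPM in MEF (median 219.5), so that every BMDM library was above every MEF library, by 0.62 at 0 h (SE 0.124, edgeR adjusted p = 8.72e-05). Rps21 (0.59), Rps29 (0.56), Rps9 (0.31) and Rps14 (0.30, SE 0.132, edgeR adjusted p = 0.0469) were also higher in BMDM at 0 h. Without the length trend described below Rps25 was 0.46 higher in BMDM, and with library totals as the only scaling 0.20 (edgeR adjusted p = 0.126).

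The 60S proteins shape the catalytic core and the exit for the new chain, and of 46 genes 36 were lower and 3 higher in BMDM at 0 h (median -0.52), beside that same background. Rpl22, which is dispensable for growth but needed by alpha-beta T cells (chr4:152325742-152334071), was at 136 to 171 CPM in BMDM (median 149) and 366 to 494 CPM in MEF (median 400). These ranges did not overlap, with a log2 difference of -1.33 at 0 h (SE 0.126, edgeR adjusted p = 5.46e-10). The others named by rank were Rpl36a (-1.31), Rpl13 (-1.29), Rpl4, which reaches into the exit tunnel (-1.20), Rpl8 (-1.16) and Rplp0 (-1.06). Higher in BMDM were Rpl37a (0.61, SE 0.161, edgeR adjusted p = 0.00165), Rpl31 (0.44) and Rpl17 (0.34).

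Within the 60S subunit all 4 stalk genes were lower in BMDM, among them Rplp1 (-0.55) and Rpl12 (-0.55). Both genes of the 5S particle, which binds Mdm2 and so stabilises p53 when ribosome assembly fails, were lower, Rpl5 by -0.96 and Rpl11 by -0.95. Of 8 genes at the tunnel exit, where chaperones and the signal recognition particle dock, 5 were lower, with Rpl39 at -1.05 and Rpl23a at -0.90, and 2 were higher. Beside these counts, 35.5% of all genes were lower and 32.7% higher, and 36 of the 46 genes of the subunit were lower. The medians were -0.55 for the stalk, -0.95 for the 5S particle and -0.48 for the tunnel exit, against -0.52 for the subunit.

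The fit scales libraries by TMM, and the choice matters for the split in direction. With library totals as the only scaling the median of all genes moved by -0.41 at 0 h, -0.37 at 1 h and -0.35 at 2 h, and 65, 72 and 67 of the 76 genes were lower in BMDM (background 44.7%, 43.9% and 42.9%) with 0 higher at any time. All 9 genes higher at 0 h thus lost that call. Rpl17 (-0.08), Rps14 (-0.12) and Rps9 (-0.11) turned in sign. Values below are on the TMM scale.

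**Figure D2:**
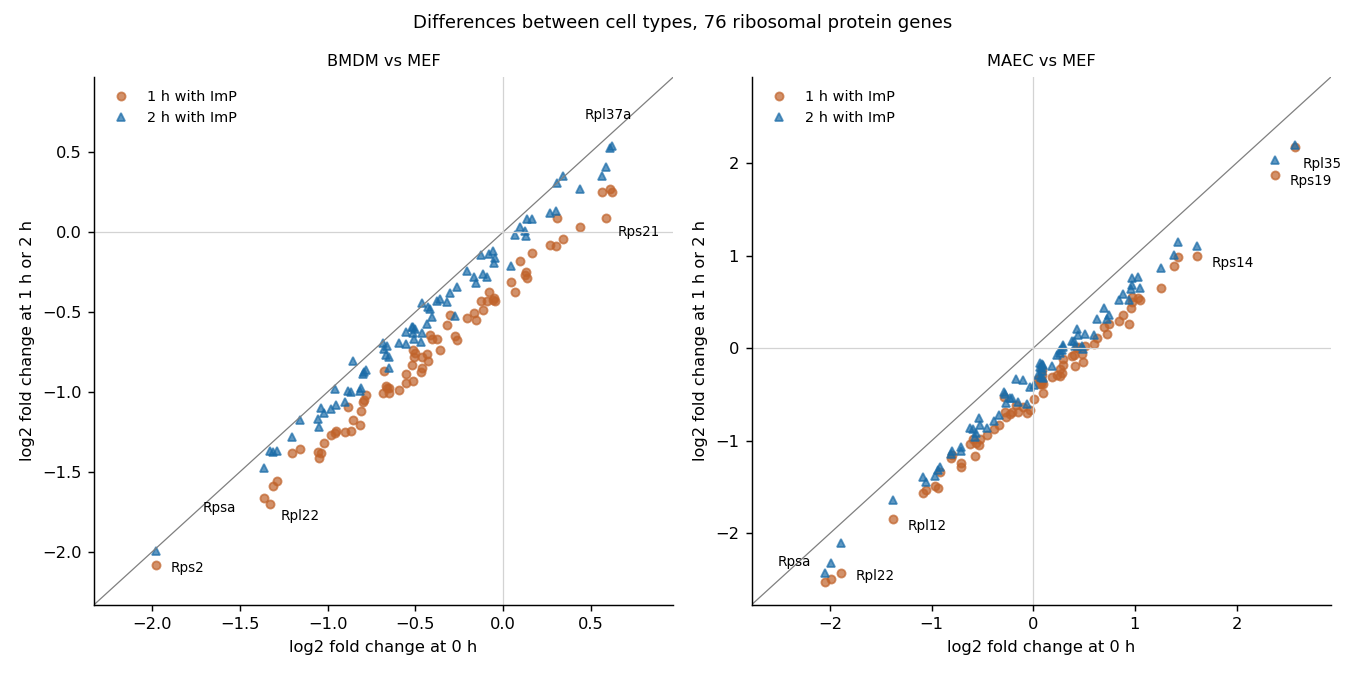
Log2 difference of each of the 76 genes between BMDM and MEF (left) and MAEC and MEF (right), with the value at 0 h on the x axis and that at 1 h (circles) or 2 h (triangles) on the y axis, and the diagonal marking equal values. Points lie close to lines parallel to the diagonal, and the medians at 1 h are -0.78 and -0.35 against -0.47 and 0.09 at 0 h.

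Against MEF at 0 h, the libraries labelled MAEC showed no common direction but wide differences between single genes, and at 1 h and 2 h more genes were lower than higher. At 0 h 30 genes were higher and 25 lower (edgeR, background 37.2% and 34.9%), with a median of 0.09. At 1 h 13 were higher and 44 lower (background 35.8% and 34.8%, median -0.35), and at 2 h 18 and 37 (background 37.1% and 34.4%, median -0.21). Across the 3 times 13 were higher each time and 25 lower each time, against 31.6% and 30.2% of all genes. Leaving out the third unstimulated MAEC library turned the median at 0 h to -0.12.

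Relative to the median of the 76 genes, differences in this comparison moved less between times than they varied between genes. After the median of the 76 genes was subtracted at each time, a gene's difference moved over the 3 times by a median of 0.090 on the log2 scale and at most 0.25, while its SD across genes was 0.85 to 0.86. For BMDM against MEF the same values were 0.077, at most 0.21, and 0.50 to 0.53. The times use different libraries but share the kit and cell type.

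Rpl35, at the tunnel exit near the docking site of the signal recognition particle (chr2:39001580-39005624), was at 498, 435 and 671 CPM in unstimulated MAEC and at 355 to 671 CPM over all 9 MAEC libraries. It was at 74.8 to 108 CPM in MEF and 53.6 to 76.4 CPM in BMDM. Every MAEC library was above every other library, with a log2 difference from MEF of 2.58 at 0 h (SE 0.162, edgeR adjusted p = 1.67e-13). Rpl35 overlaps Arpc5l and Wdr38 on the opposite strand.

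Rps19, needed for maturation of the 18S ribosomal RNA (chr7:24884371-24889806), was at 766 to 1491 CPM in MAEC, 204 to 284 CPM in MEF and 203 to 258 CPM in BMDM. MAEC again stood apart, by 2.38 from MEF at 0 h (SE 0.134, edgeR adjusted p = 1.83e-14), while BMDM and MEF overlapped. Further genes higher in MAEC were Rps14 (1.62), Rpl15 (1.43), Rpl37a (1.26), Rps25 (1.05) and Rps9 (1.03).

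Rps12 (chr10:23785183-23787275) was at 52.8 to 96.2 CPM in MAEC, 308 to 455 CPM in MEF and 261 to 348 CPM in BMDM. All MAEC libraries were below all others, with a log2 difference from MEF of -1.99 at 0 h (SE 0.132). Rpsa was at 298 to 533 CPM in MAEC, likewise below every other library, with a log2 difference from MEF of -2.05 (SE 0.114, edgeR adjusted p = 1.45e-14). Rpl22 (-1.89), Rpl12 (-1.38), Rpl8 (-1.08), Rps4x (-1.05), Rps28 (-0.97) and Rplp1 (-0.93) were also lower. Of the stalk, Rplp0 was higher (0.40) and Rplp1 and Rpl12 lower, and of the 5S particle Rpl11 (-0.56) and Rpl5 (-0.27) were both lower.

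**Figure D3:**
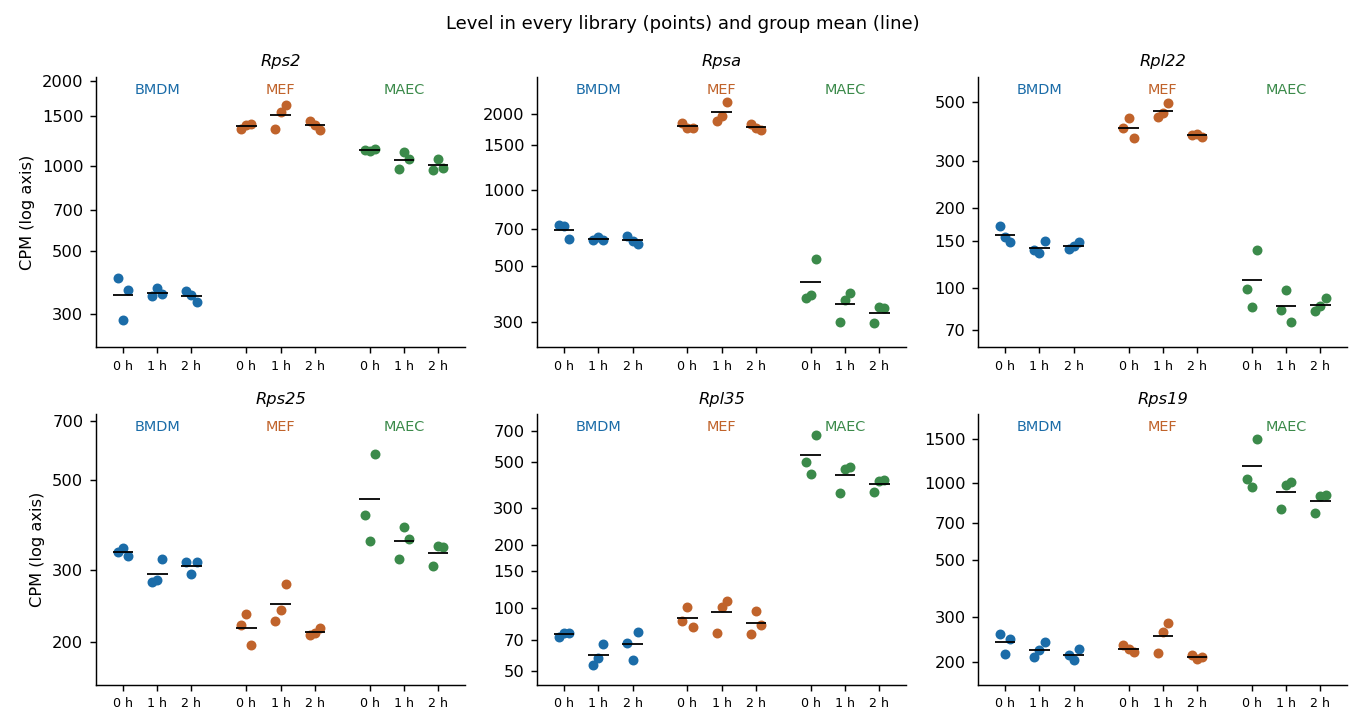
Levels of named genes in each library, in CPM on a log axis, by cell type and time, with points for libraries and lines for group means. Every MAEC library lies above the rest for Rpl35 and Rps19, and every MEF library lies above every BMDM library for Rps2, Rpsa and Rpl22.

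Gene length moved with these differences. Among genes that encode no member, MAEC exceeded MEF at 0 h by a median of 1.18 for transcripts under 500 bp and 1.30 for 500 to 1000 bp, while the median was -1.66 for those of 8000 bp or more. The ribosomal protein genes of the 2 short classes were at -0.04 and 0.29, below other genes of their length. Other families of short genes were higher, 70 of 77 mitochondrial ribosomal protein genes (median 1.17) and 70 of 74 nuclear genes of oxidative phosphorylation (median 1.54). With each library's trend on length removed, 67 of the 76 genes were lower and 6 higher in MAEC at 0 h (median -1.04, background 35.5% and 34.4%), 69 and 2 at 1 h (background 35% and 34.2%), and 68 and 3 at 2 h (background 34.3% and 35.5%). Rpl35 (1.39), Rps19 (1.10), Rps14 (0.33) and Rpl15 (0.19) remained higher in that fit, Rpsa was at -2.82 and Rps12 at -3.24, and Rps25 (-0.23), Rps9 (-0.23) and Rpl37a (-0.04) turned in sign. What part kit, length and cell type have in this was not tested and cannot be told apart here.

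BMDM and MEF, from the same kits, differed less than MAEC and MEF for other transcripts under 1000 bp. Other genes of the classes under 500 bp, 500 to 1000 bp and 1000 to 2000 bp were at 0.14, 0.13 and 0.05 (BMDM against MEF at 0 h), while the ribosomal protein genes of these classes were at -0.44, -0.45 and -0.60. With the trend removed 58 were lower and 7 higher (median -0.64, background 34.7% and 34.1%), against 48, 9 and -0.47 with the trend left in. Rps2 (-2.10), Rpsa (-1.45) and Rpl22 (-1.51) kept their difference.

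Lists of related genes were counted in BMDM against MEF at 0 h, where 35.5% of all genes were lower and 32.7% higher. All 32 ribosome biogenesis genes listed were negative and 31 passed (median -1.45), among them the box C/D snoRNP protein Nop58 (-2.29), dyskerin, Dkc1 (-3.13), and the RNA polymerase I factor Rrn3 (-1.42). Of 20 translation factors and other genes with TOP transcripts 15 were lower and 3 higher, led by Hnrnpa1 (-2.61), Npm1 (-1.77) and Eef1d (-1.48). Of 12 genes that regulate TOP mRNAs 7 were lower, among them the translation repressor Eif4ebp1 (-1.91), and 4 higher. The ribosomal protein genes outside the rule gave Rps3a1 -0.75 and Fau 0.12 (edgeR adjusted p = 0.405). In MAEC against MEF 19 biogenesis genes were lower and 4 higher (median -0.63). Of the 20 TOP genes 9 were lower there, led by the elongation factor Eef2 (-2.52) and the initiation factor Eif4b (-2.47), and 8 higher, both near the background of 34.9% and 37.2%.

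After ImP, no ribosomal protein gene passed the edgeR test in any cell type with all libraries. In all 9 comparisons of times, 0 of the 76 genes were called by edgeR. By limma-voom the count was also 0 in each, and by DESeq2 it was 0 in 7, 1 lower in BMDM at 2 h against 0 h (background 0.00755% lower) and 8 lower in MEF at 2 h against 1 h (background 0.306% lower). Among all genes edgeR called 0.0226% in BMDM at 1 h against 0 h, 0.0302% at 2 h against 0 h, and 0% in the other 7. Fold changes of the 76 genes lay close together, with an SD of 0.036 to 0.076 on the log2 scale, against 0.34 to 0.66 over all genes. The latter include genes of low counts, whose fold changes scatter more, and the sets were not matched for level.

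In BMDM most values lay slightly below unstimulated levels at both times, with no gene passing by edgeR with all libraries. The median log2 difference was -0.15 at 1 h (-0.33 to 0.02, with Rps2 alone above 0) and -0.15 at 2 h (-0.29 to -0.01, all 76 negative), against 0.00 over all genes. At an unadjusted p under 0.05 by edgeR, 43 were lower at 1 h and 42 at 2 h, where 5.23% and 6.15% of genes passed. Between 1 and 2 h the median was -0.01, with 0 at that p, where 1.65% of all genes passed. The unstimulated libraries differed, with 76, 70 and 55 genes above their BMDM mean (median deviations 0.15, 0.13 and 0.02 on the log2 scale). Leaving out single libraries gave medians from -0.19 to -0.12 at both 1 h and 2 h, nearest 0 without the first unstimulated library.

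Rps28 was measured at 180, 177 and 169 CPM at 0 h, 129, 149 and 158 at 1 h and 144, 140 and 148 at 2 h, scaled within BMDM. Every treated library was below every unstimulated one, and the change at 2 h did not pass (-0.29, SE 0.0704, edgeR adjusted p = 0.616). Rps21 was at -0.28 at 2 h (SE 0.0679). Counting genes whose 3 libraries all lay below those at 0 h gave 31 of 76 at 1 h and 42 at 2 h, against 5.61% and 6.31% of all genes. A fit without the third 1 h and 2 h libraries was chosen after seeing the data. The third 1 h library had the highest median deviation of its group (-0.0004, against -0.08 and -0.05), so leaving it out lowers the 1 h level being tested. In that fit 5 genes were lower at 1 h by edgeR (background 0.104% lower): Rpl39 (-0.35), Rpl35 (-0.43), Rps27 (-0.34), Rps24 (-0.32) and Rps28 (-0.34). With the length trend also removed that count was 0. Leaving out each library singly gave 0 genes at 1 h every time.

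In MEF the values were highest at 1 h, with no gene passing by edgeR with all libraries. The median was 0.16 at 1 h against 0 h (0.07 to 0.24, all 76 positive), -0.07 at 2 h against 0 h (all 76 negative) and -0.24 at 2 h against 1 h (-0.39 to -0.11, all 76 negative). At an unadjusted p under 0.05 by edgeR these comparisons held 30, 0 and 62 genes, where 5.87%, 2.43% and 12.1% of all genes passed. Rpl22 had levels of 453, 492 and 412 CPM at 0 h, 488, 517 and 551 at 1 h and 416, 421 and 412 at 2 h, scaled within MEF. The 1 h libraries were above those at 2 h, and the lowest of them lay within the range at 0 h. Its change from 1 to 2 h did not pass by edgeR (-0.32, SE 0.0733, edgeR adjusted p = 0.153), nor did those of Rpl12 (-0.33) and Rps18 (-0.34). All 3 were among the 8 genes called by DESeq2, with Rpl22 at -0.31 (DESeq2 adjusted p = 0.0163).

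Libraries of the 1 h MEF group differed among themselves. The third 1 h library had all 76 genes above their MEF mean (median deviation 0.27 on the log2 scale), the second likewise (0.16), and the first was at -0.03. A fit without that first library was chosen after these values were seen, and leaving it out raises the 1 h level being tested. It gave 49 genes lower at 2 h than at 1 h by edgeR (background 0.995% lower), led by Rpl36 (-0.53, SE 0.0790). With the length trend removed as well the count was 0. Leaving out the second 1 h library instead gave 0 genes. Without the third 1 h library the median was -0.16, against -0.24 with all libraries.

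In MAEC the medians were -0.28 at 1 h (-0.48 to -0.09) and -0.38 at 2 h (-0.58 to -0.17), with all 76 genes negative at both times. At an unadjusted p under 0.05 by edgeR 6 and 47 genes were lower, where 4.96% and 9.21% of all genes passed. Between 1 and 2 h the median was -0.09 with 0 genes at that p, where 1.98% of all genes passed. Rps24 had 352, 357 and 441 CPM at 0 h, 268, 375 and 321 at 1 h and 262, 320 and 292 at 2 h, scaled within MAEC. All 2 h libraries were below all at 0 h, where the third library was the highest. The change at 2 h did not pass (-0.40, SE 0.140, edgeR adjusted p = 0.539), nor did that of Rps14 (-0.50).

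The third unstimulated MAEC library had all 76 genes above their MAEC mean, by a median of 0.55. Without it the medians were -0.09 at 1 h and -0.18 at 2 h. Rps2 in the third unstimulated library was above its MAEC mean but not the highest at 0 h, at 1124, 1232 and 1158 CPM scaled within MAEC. The first 1 h library (-0.36) and the first 2 h library (-0.27) had 0 genes above the mean.

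**Figure D4:**
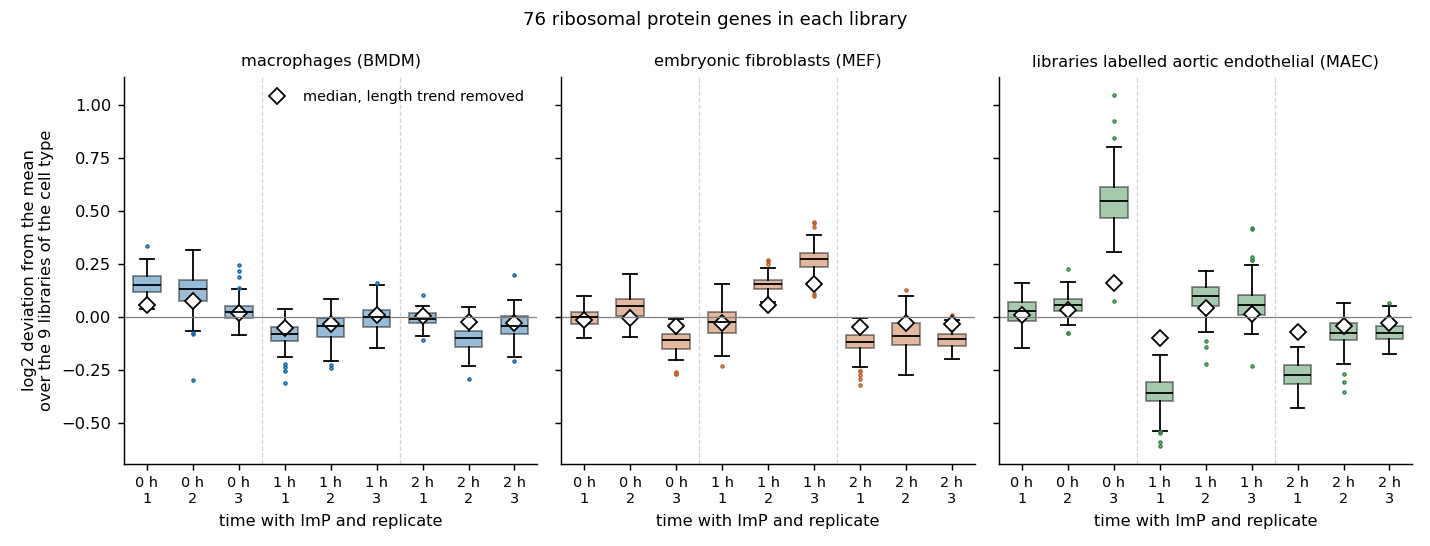
Deviation of the 76 genes from their mean over the 9 libraries of a cell type, on the log2 scale, as boxes for each library (line at the median, box over the quartiles), with diamonds for the median after removing that library's trend on transcript length. The SD of the library medians fell from 0.0872 to 0.0431 in BMDM, from 0.136 to 0.0664 in MEF and from 0.258 to 0.0764 in MAEC.

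Other short transcripts deviated in the same libraries. In the third unstimulated MAEC library, Spearman's rho between length and deviation over genes that encode no member was -0.33, and the medians of mitochondrial ribosomal protein and oxidative phosphorylation genes were 0.38 and 0.47 above their means. For the first 1 h MAEC library the values were 0.47, -0.20 and -0.29, and for the third 1 h MEF library -0.40, 0.21 and 0.27. The first unstimulated BMDM library had -0.36, 0.10 and 0.15. These correlations are across genes of 1 library and describe it only. With the trend removed the medians over time were -0.09 and -0.06 in BMDM (1 h and 2 h against 0 h), 0.08 and -0.02 in MEF with -0.09 from 1 to 2 h, and -0.09 and -0.12 in MAEC.

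The same comparison was made by class of transcript length. From 1 to 2 h in MEF the ribosomal protein genes were at -0.26, -0.24 and -0.23 (under 500 bp, 500 to 1000 bp, 1000 to 2000 bp) and other genes of those lengths at -0.21, -0.18 and -0.10, with 0.20 for those of 8000 bp or more. In MAEC at 2 h the values were -0.43, -0.37 and -0.32 against -0.24, -0.24 and -0.08, and in BMDM at 2 h -0.21, -0.14 and -0.13 against -0.14, -0.09 and -0.03. The part of transcript length or of RNA quality in the shifts over time was not tested.

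**Figure D5:**
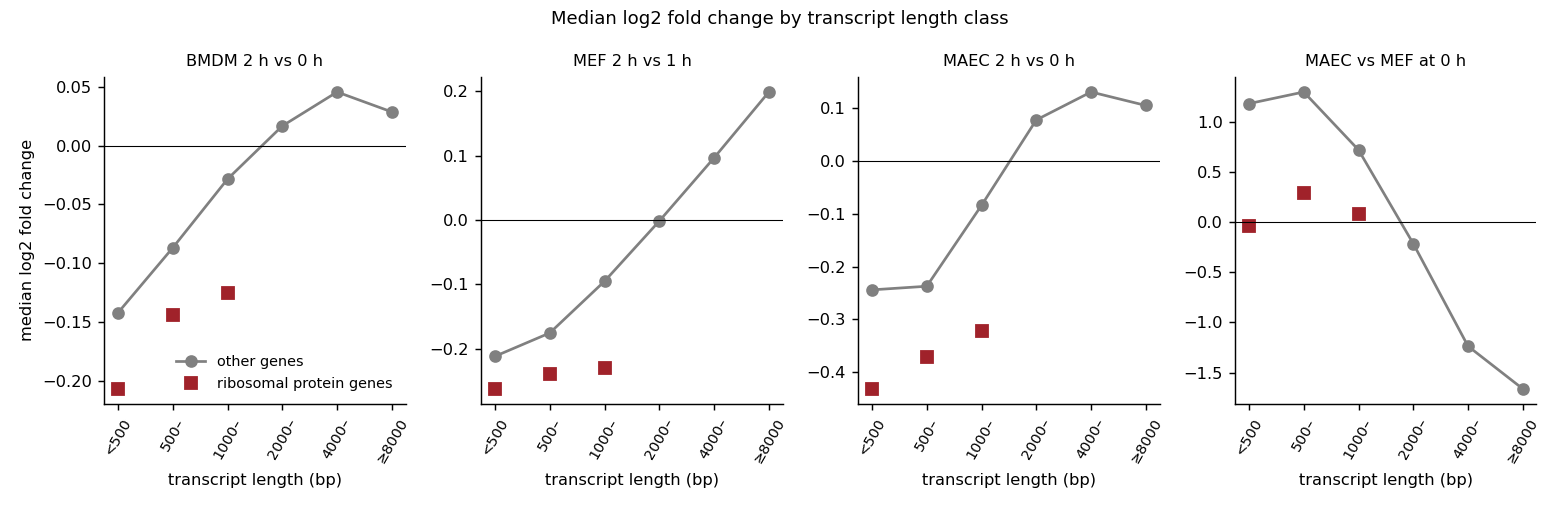
Median log2 change by class of transcript length, in bp, for ribosomal protein genes and all other genes, in 3 comparisons between times and in MAEC against MEF at 0 h. In the 3 comparisons between times the shortest transcripts lie lowest in both sets, at -0.26 and -0.21 under 500 bp for MEF from 1 to 2 h.

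Between times the mRNAs of either subunit had similar medians, unlike BMDM against MEF at 0 h (-0.14 for 40S and -0.52 for 60S). At 2 h against 0 h the 40S and 60S medians were -0.16 and -0.14 in BMDM and -0.39 and -0.37 in MAEC, and from 1 to 2 h in MEF they were -0.24 and -0.25. By start site, the 25 genes with a run of at least 8 C or T had medians of -0.13 in BMDM at 2 h, -0.36 in MAEC at 2 h and -0.43 for BMDM against MEF at 0 h, and the 31 with an entry but no such run -0.16, -0.38 and -0.47. The 23 genes with a small nucleolar RNA were at -0.51 for BMDM against MEF at 0 h and the other 53 at -0.46. These medians are descriptions with no test. Among genes outside the rule, no list held a called gene in these comparisons by edgeR. Oxidative phosphorylation genes had medians of -0.15 in BMDM at 2 h, -0.24 in MEF from 1 to 2 h and -0.35 in MAEC at 2 h. Ribosome biogenesis genes were at 0.05, 0.12 and -0.01 in the same comparisons.

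Whether the response to ImP differed between cell types was tested with interaction terms over all 27 libraries. In these 4 comparisons 0 of the 76 genes were called by edgeR, against 0.00587% and 0.0117% of all genes for BMDM minus MEF at 1 h and 2 h and 0% for MAEC minus MEF at either time. DESeq2 also called 0, against 0.0293% and 0.0235% for BMDM minus MEF and 0.452% and 0.37% for MAEC minus MEF. By limma-voom the count was 0 too, against 0.00587% at either time for BMDM minus MEF and 0% for MAEC minus MEF. The medians were -0.33 and -0.10 for BMDM minus MEF and -0.48 and -0.33 for MAEC minus MEF. At an unadjusted p under 0.05 by edgeR these held 25, 0, 71 and 25 genes, where 3.62%, 2.18%, 11% and 7.93% of all genes passed. The medians depended on single libraries. With each left out in turn they ran from -0.40 to -0.25 and -0.14 to -0.07 for BMDM minus MEF at 1 h and 2 h. For MAEC minus MEF they ran from -0.58 to -0.28 and -0.42 to -0.13, nearest 0 without the third unstimulated MAEC library. The smallest p belonged to Rpl29 for MAEC minus MEF at 1 h (-0.57, SE 0.152, edgeR adjusted p = 0.274), followed by Rpl10a (-0.51). With the length trend removed, the medians at 1 h were -0.21 for BMDM minus MEF and -0.22 for MAEC minus MEF.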

How the data were processed

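Bulk RNA sequencing of 27 mouse libraries was analysed from 1 table of expected counts per gene symbol that the authors deposited. Cutadapt and FastQC, STAR, RSEM, DESeq2 and R 4.3.2 are named, with GRCm38.p6 (mm10), per the submitters' processing notes. The strand of counting and all settings are not given in the sources used here. RSEM was the only counter named, so values were taken as its estimated counts. All were already whole, so rounding changed nothing. The values of 9 further tables, 1 per group, were identical. No pair among 27 replicate pairs agreed within sampling noise (lowest chi-squared per degree of freedom 5.89).

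Fits within a cell type used edgeR 4.0.16 (R 4.3.3), with TMM scaling and filterByExpr at its minimum count of 10 (robust quasi-likelihood F-test, two-sided, Benjamini-Hochberg over 13251, 14066 and 14779 genes in BMDM, MEF and MAEC, threshold 0.05). Cell types and interactions came from 1 model of all 27 libraries (17038 genes). Standard errors are the log2 fold change over the root of F. The biological coefficient of variation was 0.126 in BMDM and MEF and 0.326 in MAEC. CPM are TMM-scaled over all 27 libraries unless said otherwise. Transcript length is that of the shortest consensus coding transcript in GENCODE M21. The length trend is a natural spline with 4 degrees of freedom per library, fitted on genes that are no members and used as an offset. Alternatives were DESeq2 1.42.0, limma-voom (limma 3.58.1), RLE scaling, library totals alone, TMM without the members, other low-count filters, the compared groups alone, the length trend removed, library codes as a block and leaving out each library. Scripts were tested on simulated data.

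The members, the lists (ribosome biogenesis, translation factors with TOP transcripts, regulators of TOP mRNAs, mitochondrial ribosomal proteins, oxidative phosphorylation, paralogues) and the tests were chosen with earlier results of these data known. Named were called genes by fold change (up to 10 per direction and time comparison, 8 per cell type comparison at 0 h), otherwise the 3 with the smallest p per direction or 2 per interaction, the 5 highest and lowest per kb, the 3 varying most between cell types, and up to 3 per list by p. Genes given by library were chosen from these after their values were seen. Some genes are counted among the members but not reported here by name.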

Additional observations from a re-analysis of the deposited data

How the results depend on the processing

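Counts of called ribosomal protein genes stayed within 1.5 times in 360 of 366 alternative settings, and single named genes kept direction and side of the threshold in 1173 of 1222. These counts pool both directions, and the comparisons of times started from 0. The split between higher and lower genes changed more, as described above for library totals alone and for the length trend. Median log2 differences of the 76 genes were scored as moved in 38 of 366 settings. Counts moved from 0 to 1 for BMDM at 2 h against 0 h by DESeq2, from 0 to 8 for MEF at 2 h against 1 h by DESeq2 (among them Rpl22, Rpl12, Rpl15 and Rps18), from 0 to 5 for BMDM at 1 h without the third 1 h and 2 h libraries, and from 0 to 49 for MEF at 2 h against 1 h without the first 1 h library. The fits without those libraries, and a length trend on the union of exons, were chosen after seeing the data. Leaving out each library in turn gave 0 to 49 genes for MEF at 2 h against 1 h, 0 to 1 for MAEC minus MEF at 1 h (Rpl29, -0.66, edgeR adjusted p = 0.036, without the first unstimulated MAEC library), and 0 in every other comparison of time. It gave 51 to 53, 59 to 65 and 53 to 56 for BMDM against MEF at 0, 1 and 2 h, and 50 to 56, 54 to 59 and 47 to 52 for MAEC against MEF. With library totals alone, Rpl17 (-0.079), Rps14 (-0.12) and Rps9 (-0.11) reversed between BMDM and MEF at 0 h. With the length trend removed, Rpl37a (-0.039, and -0.21 on the union of exons), Rps25 (-0.23) and Rps9 (-0.23) reversed between MAEC and MEF at 0 h. The calls of Rps14 and Rps29 between BMDM and MEF also ended when single libraries were left out. Runs of consecutive library codes as a replicate block changed no call between times, with 0 genes in all 9 comparisons. Deviations of libraries within 1 such run correlated at -0.21 to 0.10 in BMDM, -0.06 to 0.19 in MEF and -0.03 to 0.13 in MAEC, and the labels give no shared replicate numbers. With 3 libraries a group, shifts as small as those seen over time lie near the spread between libraries. The smallest library held 19 M counts.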

Other observations

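Paralogues of ribosomal proteins differed between cell types. Of 10 listed, 6 passed the low-count filter in the model of all libraries. Against MEF at 0 h, 5 of the 6 were higher in MAEC by edgeR, where 37.2% of all genes were. They were Rps27l, a p53 target (2.48), Rps27rt (3.69), Rpl22l1 (1.52), Rpl7l1 (0.92) and Rpl36al (0.72). Rps27l had a mean of 402 CPM over the 9 MAEC libraries (309 to 564), 85.2 CPM in MEF (75.3 to 106) and 70.1 CPM in BMDM (60.4 to 78.4), so MAEC stood apart and BMDM and MEF overlapped. Rpl22l1, which can take the place of Rpl22 in the ribosome, was at 36.0 to 65.5 CPM in MAEC, 16.6 to 25.4 CPM in MEF and 28.0 to 34.8 CPM in BMDM. In both MAEC and BMDM it was higher than in MEF (0.75 for BMDM at 0 h, edgeR adjusted p = 0.000128) while Rpl22 was lower. These are short genes in libraries of a different kit, and the part of length in the MAEC values was not tested. Near-identical copies are a further limit on single genes. The annotation lists 298 pseudogene symbols of the member genes, covering 59 of the 76, and 6 symbols of that form are in the count table, so reads from most copies may have been counted with a member or not at all.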
